A study of Mus musculus with 10 samples.

Results

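Homeobox genes of brain patterning were examined for binding of estrogen receptor α (ERα) in 2 nuclei of the mouse hypothalamus. The members were all protein-coding genes of the RefSeq annotation of mm10 whose symbols name them as Hoxa, Hoxb, Hoxc, Hoxd, Lhx, Isl, sine oculis (Six2 and its relatives), Otx, Nkx, Dlx, Pou, Meis, Pbx or Irx genes, which gave 106 of 21000 protein-coding genes. Of these, 39 lie in the Hox clusters and 67 elsewhere, and every symbol but Pou2af1, a co-activator that partners POU proteins, names a homeodomain protein. A gene was counted as bound in a library when one of its start sites was the nearest RefSeq start site to the centre of at least 1 peak, with and without a limit of 20 kb, so that "bound" names an assignment by position and not a measured effect on the gene.

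ERα was mapped by chromatin immunoprecipitation and sequencing (ChIP-seq) with antibody sc-543 in 4 libraries of the arcuate nucleus and 4 of the anteroventral periventricular nucleus (AVPV). All the tissue came from female C57BL/6 mice that had been ovariectomised, carried a subcutaneous 17β-estradiol capsule (0.1 mg/mL in sesame oil), received estradiol benzoate (0.05 mg/kg) a week later and were dissected 28 h after the injection. Both groups therefore share the surgery and the hormone, no vehicle-treated ChIP library is analysed here, and the comparison is between nuclei alone. The chromatin was pooled from dissected tissue, which holds neurons and glia of many kinds, and no source used here states if each library had a pool of its own. Every SD and p-value is therefore over libraries and may describe technical spread.

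Homeobox genes encode transcription factors that bind DNA through a homeodomain, and they set regional and cell identity along the embryonic body axis and brain. Hox genes act in the hindbrain, spinal cord and body and are silent in the forebrain, where Polycomb proteins cover their clusters. The Lhx, Isl, sine oculis, Otx, Nkx and Dlx families pattern the forebrain and hypothalamus, POU factors act in neuronal and endocrine differentiation, and the TALE proteins Meis, Pbx and Irx work as partners or as regional regulators. ERα is a hormone-activated nuclear receptor that binds as a dimer to a palindromic estrogen response element, made of a pair of half-sites with a spacer between them, often far from the genes it controls.

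The peak lists held 3251 to 4079 peaks in the arcuate libraries and 2367 to 3347 in the AVPV libraries. Merging the 25982 peaks gave 8072 regions, and every library had a peak in 1089 of them. Arcuate replicate 3 had fewer peaks than AVPV replicate 3, and the other arcuate lists were all longer than every AVPV list. Since the files hold no read counts, depth is unknown here, and a gene without a peak was not detected as bound rather than shown to be free of ERα. The peak lists carry no expression values, so the labelled tissue could not be compared with marker genes.

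ERα peaks lay nearest to few patterning homeobox genes. In arcuate replicates 1 to 4, 4, 4, 3 and 4 of the 106 genes were bound, and in AVPV replicates 1 to 4, 2, 2, 3 and 2. The nuclei met at 3 genes, in the replicate 3 libraries, and otherwise the arcuate counts were the higher. These counts are 3.54% ± 0.472 of the members in the arcuate (SD, n = 4) and 2.12% ± 0.472 in the AVPV (SD, n = 4), where all protein-coding genes stood at 12.0% ± 0.890 and 9.69% ± 1.53. Thus each library bound a smaller share of the patterning genes than of genes at large. Over the 8 libraries 7 members were bound at least once, or 6.60%, against a background of 23.4% of all protein-coding genes. All 7 were among the 67 members outside the Hox clusters.

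With peaks limited to 20 kb from the start site, 0, 0, 0 and 2 members were bound in the arcuate replicates and 0, 1, 1 and 1 in the AVPV replicates. All protein-coding genes then stood at 8.31% ± 0.850 in the arcuate (SD, n = 4) and 6.86% ± 1.42 in the AVPV (SD, n = 4). At least once, 4 members were bound, or 3.77%, against a background of 16.9%. All 4 were among the 67 members outside the Hox clusters. No member was bound in all 8 libraries within that distance, where 2.97% of all genes were. The order of the nuclei turned within 20 kb, with a mean of 0.5 members in the arcuate and 0.75 in the AVPV, so neither order holds at both distances.

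**Figure D1:**
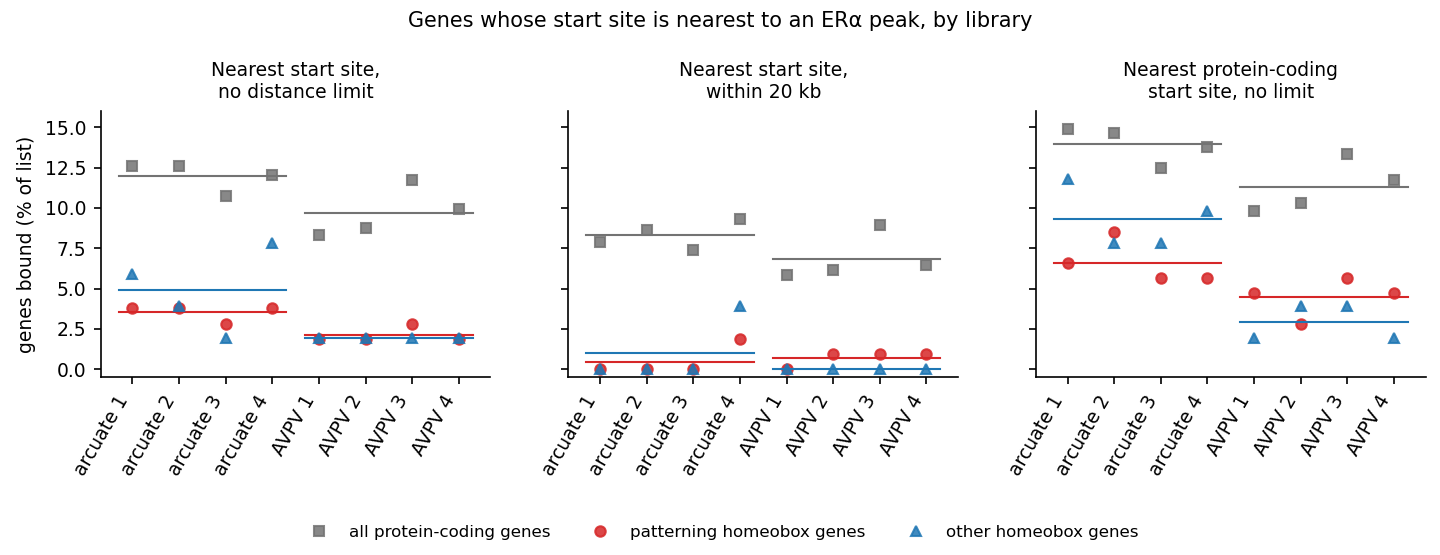
Share of genes bound by ERα in each of the 8 libraries (percent of each list, y axis) for all 21000 protein-coding genes (grey squares), the 106 patterning homeobox genes (red circles) and 51 other homeobox genes (blue triangles); lines are means of the 4 libraries of a nucleus. The red circles lie below the grey squares in every library under each of the 3 rules.

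The bound members were of several families. The LIM homeodomain gene Isl1, which marks arcuate and other hypothalamic neurons during development, was bound in 4 of 4 arcuate libraries and 0 of 4 AVPV libraries. Irx3, an Iroquois regulator, was bound in 3 arcuate and 0 AVPV libraries. Of the Distal-less genes, which drive the GABAergic fate in the forebrain, Dlx1 was bound in 1 arcuate and 3 AVPV libraries and Dlx2 in 1 and 1. Of the POU genes, Pou2f1 (Oct-1, expressed in most tissues) was bound in 1 and 1, and Pou3f2 (Brn2, needed for neuroendocrine neurons of the hypothalamus) in 1 arcuate library and 0 AVPV libraries. Arcuate replicate 4 alone bound Pou3f2, and without it 6 members were bound.

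No library bound any of the 39 Hox genes, which are 11 Hoxa, 10 Hoxb, 9 Hoxc and 9 Hoxd genes. No library bound any of the 8 Lhx and 14 Nkx genes, nor any of the 6 sine oculis genes, Otx1 and Otx2, or Meis1, Meis2 and Meis3. Among the Isl, Dlx and Irx families, Isl2, Dlx3, Dlx4, Dlx5 and Dlx6, and Irx1, Irx2, Irx4, Irx5 and Irx6 were unbound, as were 14 of the 16 Pou genes. A list of 29 members with known roles in the hypothalamus was chosen with earlier results of these data known. Of these 29, 6 were bound, among them Isl1, Dlx1, Dlx2, Pou3f2 and Irx3, and 23 were not. This share of 20.7% lies near the 23.4% of all protein-coding genes, while within 20 kb 3 of the 29, or 10.3%, were bound against 16.9%. Among the unbound were Nkx2-1, which specifies the ventral hypothalamus, Six6 and Six3 of the anterior neural plate, Lhx1, Lhx2, Lhx6, Lhx8 and Lhx9, Pou2f2 and Pou3f4.

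A list of 51 homeobox genes outside these families gave a like picture. Of these genes 6, or 11.8%, were bound in at least 1 library, against a background of 23.4% of all protein-coding genes. Zfhx3, a zinc finger homeobox gene expressed in the suprachiasmatic nucleus and hypothalamus, was bound in all 8 libraries at a region 107 kb from its start site, with fold enrichments from 4.82 to 12.2. The other 5 were bound in arcuate libraries alone under this rule, which uses the start sites of noncoding genes too. These were Zfhx4, in 2 libraries, and Hmx3, En1, Onecut3 and Cux1, in 1 each. Genes at large also leaned to the arcuate, whose lists are mostly longer. Of the 4918 protein-coding genes bound at least once, 4178 were bound in an arcuate library and 3263 in an AVPV library.

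In all 13 regions lay nearest to a member. The Isl1 region (chr13:115747896-115748464) is intergenic, 562 kb downstream of the Isl1 start site. Its sequence is shown because it had a peak in all 4 arcuate libraries and in no AVPV library. The printed stretches are from mm10, on the plus strand, over at least the 50 bases on either side of the summit. In the Isl1 sequence capitals mark the letters of the AP-1 motif TGANTCA, since it has no match with at most 2 mismatches to the response element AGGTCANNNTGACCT within 100 bp of the summit. In the sequences further on, capitals mark the closest match to that element.

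Isl1, 562 kb (chr13:115748146-115748246): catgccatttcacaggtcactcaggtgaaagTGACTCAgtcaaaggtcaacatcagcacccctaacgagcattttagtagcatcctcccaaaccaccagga

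At the Isl1 region fold enrichment, the ratio of a peak's signal to its local background, was 10.1, 7.59, 10.9 and 4.08 in arcuate replicates 1 to 4, and no AVPV library had a peak. Arcuate replicate 4 was the lowest and stood at the 8.68th percentile of its library's fold enrichments, and replicate 3 at the 84.8th. The summits lay within 60 bp of each other. With 4 arcuate and 0 AVPV libraries, Fisher's exact test gave Isl1 a two-sided p of 0.0286, the smallest that 4 libraries against 4 allow, and 1 after Benjamini-Hochberg adjustment over the 4918 genes bound in at least 1 library. No gene passed the adjusted Fisher's exact test, and 110 had an unadjusted p under 0.05. Of the 4918 genes, 85 or 1.73% were bound in 4 arcuate and 0 AVPV libraries, and 25 or 0.508% the other way round. Isl1 was the 1 member of the 7 bound in the first pattern, and no member showed the second. Within 20 kb no member showed either, against backgrounds of 1.27% and 0.423% of 3544 genes. The Isl1 call did not hold when peaks were limited to a fold enrichment above 5, where arcuate replicate 4 drops out, and GENCODE M21 places another gene's start site nearer.

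Peak strength could be compared between the nuclei where every library had a peak. Over those 1089 regions, limma on log2 fold enrichment found 111 or 10.2% higher in the arcuate and 100 or 9.18% higher in the AVPV at a Benjamini-Hochberg adjusted p under 0.05. The Isl1 region and the other member regions described here had no peak in at least 1 library and were outside that test.

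Of the 13 member regions, 2 had peaks in 4 arcuate and 0 AVPV libraries, the Isl1 region among them, where 2.13% of all 8072 regions did. A single library alone held 6 member regions, or 46.2%, against 41.5% of all regions.

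Irx3, Dlx1, Dlx2, Pou2f1 and Pou3f2 were bound at regions called in fewer libraries. The Irx3 region (chr8:92062605-92062862) lies 261 kb upstream of the gene, between genes, and had fold enrichments of 5.13, 5.11 and 6.35 in arcuate replicates 1 to 3. Dlx1 was bound at a region 34.1 kb upstream (chr2:71495186-71495471), in the first intron of the neighbouring gene Metap1d, where fold enrichment was 5.92 in arcuate replicate 2 and 5.23 and 5.01 in AVPV replicates 1 and 3. Another pair of Dlx1 regions, 11.8 and 12.3 kb upstream and again in Metap1d, rested on AVPV replicate 4 alone, at 5.11 and 4.26. The sequences of the Irx3 and Dlx1 regions are shown because each was bound in more than 1 library and holds a match to the response element.

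Irx3, 261 kb (chr8:92062667-92062787): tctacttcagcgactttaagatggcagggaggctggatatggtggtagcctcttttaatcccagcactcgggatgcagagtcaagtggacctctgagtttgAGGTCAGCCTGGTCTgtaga

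Dlx1, 34.1 kb (chr2:71495310-71495410): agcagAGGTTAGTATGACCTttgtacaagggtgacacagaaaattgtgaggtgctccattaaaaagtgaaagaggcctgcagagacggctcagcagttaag

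Dlx2 had a peak in its own transcribed part, 364 bp downstream of the start site (chr2:71546301-71546480). It was found in AVPV replicate 2 alone, at a fold enrichment of 2.98, the 0.826th percentile of that library. The other Dlx2 region, 83.4 kb upstream, was found in arcuate replicate 1 alone, at 4.17. Pou2f1 was the one member with a promoter region in more than 1 library. This region (chr1:166003058-166003560) is centred 675 bp upstream of a Pou2f1 start site and had fold enrichments of 5.05 in arcuate replicate 4 and 5.63 in AVPV replicate 3. An intronic Pou2f1 region, 8.82 kb downstream of a start site, was found in arcuate replicate 4 at 5.05. The Pou3f2 region (chr4:22487166-22487382) lies in the gene's exon, 1.09 kb downstream of the start site, and rested on arcuate replicate 4 at 4.18. Among the 13 regions, those found in a single library reached at most the 29.4th percentile of fold enrichment in that library, whereas the Isl1 region reached the 84.8th.

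**Figure D2:**
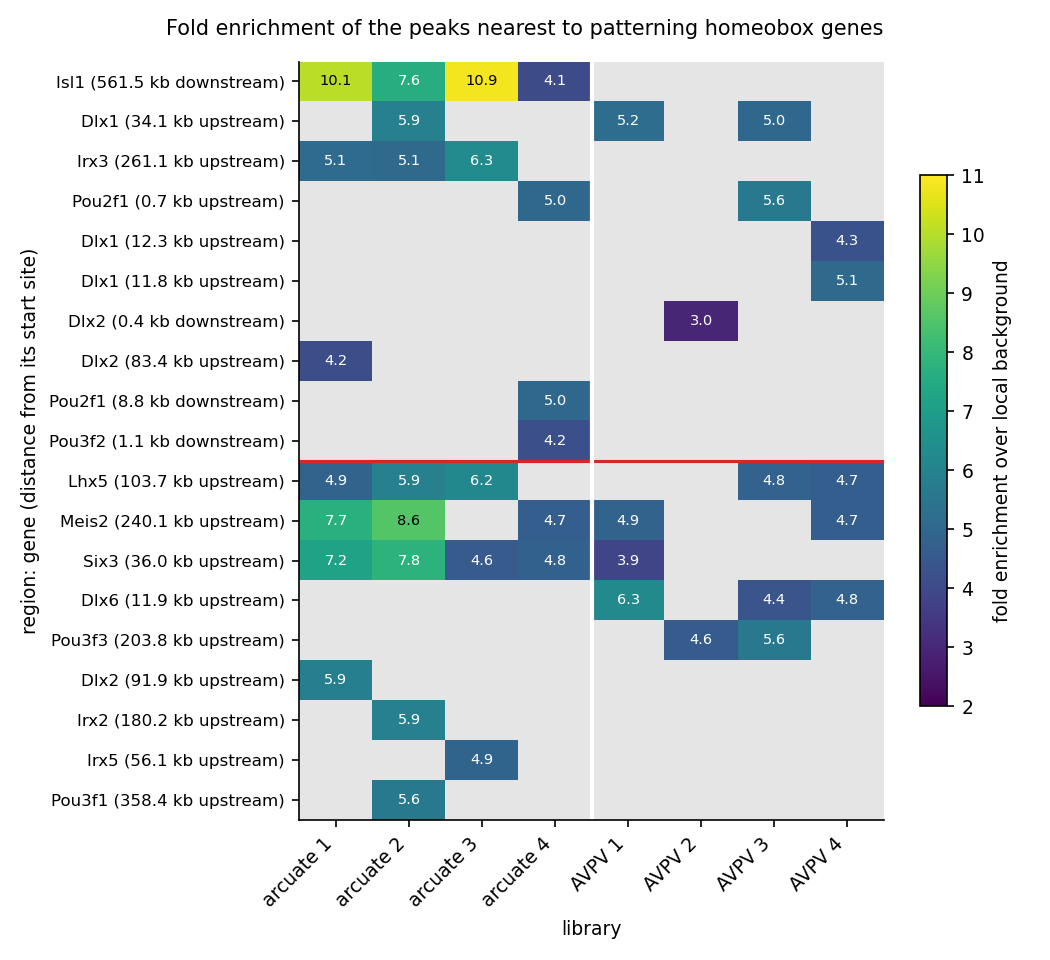
Fold enrichment over local background (colour and printed values) in each library (columns) for 10 regions nearest to a member (above the red line) and 9 regions nearest to a member once noncoding start sites are left out (below it); grey cells have no peak. Row names give the gene and the distance to its start site, and the Isl1 region is the one drawn with a value in all 4 arcuate columns and none in the AVPV columns.

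Several members lie beside noncoding RNA genes, and the counts depended on whether the start sites of these were used. With the start sites of protein-coding genes alone, 7, 9, 6 and 6 members were bound in the arcuate replicates. In the AVPV replicates 5, 3, 6 and 5 were bound. The nuclei met at 6 genes, and no AVPV library bound more. All protein-coding genes then stood at a mean of 13.9% in the arcuate and 11.3% in the AVPV, against 6.60% and 4.48% of the members. In all 15 members were bound at least once, or 14.2%, against a background of 26.3%. All 15 were among the 67 members outside the Hox clusters. The 39 Hox genes, of which 0 were bound, thus lower the share over all 106 members. The 8 genes gained were Six3, Lhx5, Meis2, Dlx6, Pou3f1, Pou3f3, Irx2 and Irx5, through 8 of the 9 regions gained. Isl1 was again the 1 member bound in 4 arcuate and 0 AVPV libraries, against a background of 2.19% of 5515 genes. No member showed the reverse, against 0.49%. Of the 51 other homeobox genes, 10 or 19.6% were bound by this rule, and Tshz1 showed the same pattern as Isl1. Cux1 and Msx2 were each bound in 3 arcuate libraries alone, and Gbx2 and Tshz2 each in 1 AVPV library alone. Of the list with known hypothalamic roles, 12 of 29 or 41.4% were then bound, a share above the 26.3% of all protein-coding genes. That list was chosen with earlier results of these data known and leaves out Lhx5, so no conclusion is drawn from its share.

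The Six3 region (chr17:85584594-85585005) lies 36.0 kb upstream of Six3, which is required to form the rostral forebrain, and 33597 bp from the start site of the noncoding gene Six3os1. Fold enrichment there was 7.20, 7.80, 4.58 and 4.80 in arcuate replicates 1 to 4 and 3.89 in AVPV replicate 1. The Dlx6 region (chr6:6851288-6851593) lies in the first intron of Dlx6os1, 11.9 kb upstream of Dlx6. It had fold enrichments of 6.28, 4.38 and 4.82 in AVPV replicates 1, 3 and 4 and no peak in an arcuate library. The Fisher's exact p was 0.143 for each of these genes, unadjusted, for 4 libraries against 1 and for 0 against 3.

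Lhx5, a LIM homeodomain regulator of forebrain and hypothalamic development, had a region 104 kb upstream (chr5:120328085-120328340). Fold enrichment was 4.88, 5.92 and 6.19 in arcuate replicates 1 to 3 and 4.82 and 4.70 in AVPV replicates 3 and 4. Meis2, a TALE cofactor, had a region 240 kb upstream (chr2:116307283-116307711), with 7.70, 8.61 and 4.69 in arcuate replicates 1, 2 and 4 and 4.86 and 4.70 in AVPV replicates 1 and 4. Pou3f3 (Brn1, a neural POU factor) had peaks of 4.62 and 5.63 in AVPV replicates 2 and 3 at a region 204 kb upstream. Irx2, Irx5 and Pou3f1 each had a peak in 1 arcuate library. The Lhx5, Meis2 and Irx2 sequences are shown because they hold the response element without a mismatch. That of Dlx6 is shown because its peaks were in AVPV libraries alone and it holds a match with 2 mismatches. The Pou3f3 region, also with peaks in AVPV libraries alone, had 4 mismatches at its closest and is not shown.

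Lhx5, 104 kb (chr5:120328165-120328265): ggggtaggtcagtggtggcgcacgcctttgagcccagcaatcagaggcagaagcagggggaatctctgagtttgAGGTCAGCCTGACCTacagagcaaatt

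Meis2, 240 kb (chr2:116307487-116307587): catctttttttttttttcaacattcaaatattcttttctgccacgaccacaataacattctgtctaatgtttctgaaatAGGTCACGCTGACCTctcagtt

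Irx2, 180 kb (chr13:72448502-72448602): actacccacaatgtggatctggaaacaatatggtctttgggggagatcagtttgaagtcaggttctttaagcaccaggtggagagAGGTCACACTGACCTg

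Dlx6, 11.9 kb (chr6:6851371-6851471): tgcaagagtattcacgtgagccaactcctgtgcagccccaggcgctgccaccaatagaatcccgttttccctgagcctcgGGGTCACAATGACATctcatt

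Allowing 2 mismatches over the 12 fixed bases, 5 of the 13 member regions, or 38.5%, held a response element no farther than 100 bp from their summit (95% Wilson interval 17.7 to 64.5, counting error only). Over all 8072 regions the share was 28.5%, and in windows moved by 5 kb it was 1.49%. Regions over 1 kb from a start site held the element more often, in 43.0% of all such regions and in 5 of 11 member regions, than regions within 1 kb, where 3.86% did. The member share thus lies close to that of distal regions in general. With the 9 further regions, 10 of 22 held a match. The element was found in the Dlx1 region at 34.1 kb with 1 mismatch, and in the Irx3 and Pou3f2 regions with 2.

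The AP-1 letters TGANTCA, searched within the same distance and read alike on both strands, were found in 2 of the 13 regions. They were found in 6.29% of all regions and in 8.49% of all regions over 1 kb from a start site. Over the 22 regions nearest to a member's protein-coding start site the count was again 2, or 9.09%. One of the 2 was the Isl1 region, with the motif 16 bp from the summit. The summit of 15.4% of the 13 regions (2 regions) lay in sequence soft-masked as repetitive in the RefSeq genome, against 10.3% of all regions and 14.6% of all regions over 1 kb from a start site. The windows around the Lhx5 and Irx3 summits were masked over 89.1% and 53.5% of the bases on either side of the summit. They shared a run of 22 bases that takes in part of the response element of each. The part of repeats in these peaks was not tested.

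Hox start sites lay far from any ERα region. The median distance from a start site to the nearest region, in any library, was 180 kb for the 106 members and 76.2 kb for all protein-coding genes. For the Hox genes it was 220 kb, and the nearest was Hoxd1 at 63.0 kb. The clusters differed, with medians of 501 kb for Hoxa, 226 kb for Hoxb, 188 kb for Hoxc and 128 kb for Hoxd. The genes of a cluster share their neighbourhood, so these are in effect 4 loci and not 39 separate observations. Outside the Hox clusters the median was 128 kb, with the family medians running from 21.3 kb for Dlx to 323 kb for Otx.

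**Figure D3:**
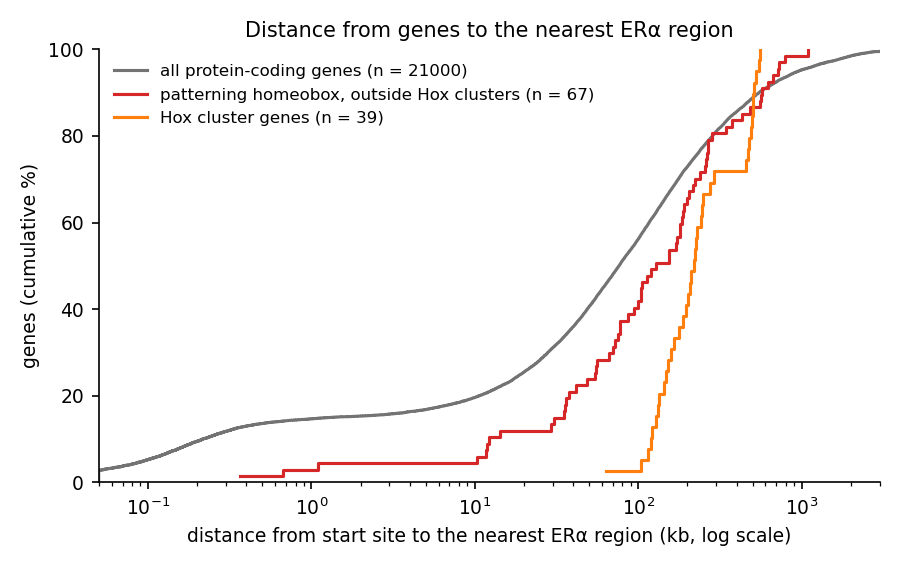
Cumulative share of genes (percent, y axis) with their nearest ERα region within the distance on the x axis (kb, log scale), for all protein-coding genes (grey), patterning homeobox genes outside the Hox clusters (red) and Hox genes (orange). The Hox curve starts at 63.0 kb, and at 1 kb the grey curve stands at 14.7% of genes.

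Some members had an ERα region nearby that lay nearer to another gene. A region lay within 20 kb of 8 members (Dlx1, Dlx2, Dlx6, Lhx1, Nkx6-3, Pou2f1, Pou3f2 and Six4), or 7.55%, where 25.5% of all genes had one. At Lhx1, Nkx6-3 and Six4 the region lay at the start site of a neighbour, 177 bp from that of Aatf, 75 bp from that of Ank1 and 10 bp from that of Mnat1. Within 50 kb the shares were 15.1% of members and 40.6% of all genes, and within 100 kb 27.4% and 56.2%. The members lay below genes at large at each of these distances.

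The stretch of genome in which a gene owns the nearest start site bounds how often the rule can bind it. This territory came to 9.21 Mb for the 106 members, with a median of 33.9 kb, against 42.5 kb for all protein-coding genes. Hox genes lie close together, and their median was 7.73 kb and their total 0.535 Mb, against 64.1 kb for a member outside the Hox clusters. All protein-coding genes had 3.15 regions per Mb of territory, and the members together had 1.41. At 3.15 per Mb the Hox territory would hold 1.68 regions, so the count of 0 Hox genes bound rests on little sequence. That average over all distances does not allow for the higher density close to start sites, 62.5 per Mb within 1 kb for all protein-coding genes. Whichever gene was nearest, 0 Hox genes had a region within 50 kb, where 40.6% of all genes had one. Genes of a cluster share their neighbourhood here too.

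By distance, the members differed from genes at large mostly at the start site. Within 1 kb they had 2 regions, or 8.85 per Mb, where all protein-coding genes had 62.5 per Mb. From 1 to 20 kb the densities were 1.82 and 1.89 per Mb, from 20 to 100 kb 0.553 and 2.17, and beyond 100 kb 1.58 and 1.40. The members' densities rest on 2, 4, 2 and 5 regions. Of the 106 members, 2 or 1.89% had a region within 1 kb of a start site (Dlx2 and Pou2f1), against 14.7% of all genes.

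ERα regions near start sites were mostly at CpG-rich promoters, a class that patterning genes often have. Such promoters, with a GC fraction of at least 0.5 and an observed-to-expected CpG ratio of at least 0.6 from 250 bp before to 50 bp after the start site, belonged to 70 of 106 members (66.0%) and to 49.8% of all genes. A region lay within 1 kb in 2 of the 70 members (2.86%) and in 24.6% of all genes of that class. The other homeobox genes had a region within 1 kb in 0 of 39 CpG-rich promoters. Within the CpG-rich class the members' share thus stayed below that of all genes.

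**Figure D4:**
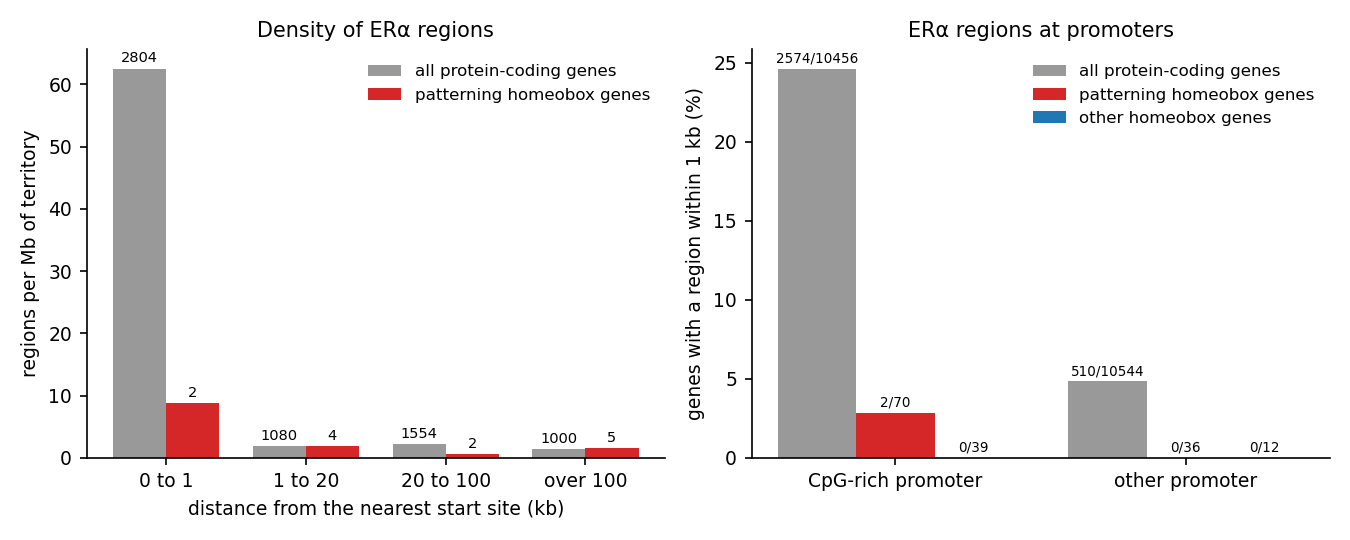
Left, ERα regions per Mb of territory (y axis) by distance from the nearest start site (x axis, kb) for all protein-coding genes (grey) and the patterning homeobox genes (red), with the number of regions above each bar. Right, percent of genes with a region within 1 kb of a start site, by promoter class, with counts above each bar, where 2 of 70 CpG-rich member promoters stand against 24.6% of all such genes.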

How the data were processed

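Peak lists of 8 ERα ChIP-seq libraries were analysed. The authors aligned single-end reads to mm10 with Bowtie2 2.5.0 and called peaks in each library with MACS2 2.2.7.1, at a false discovery rate of 5% by the values in the lists. Deposited with each peak are its fold enrichment (a ratio to local background), a -log10 p-value, a -log10 q-value, a score derived from the q-value (not used here) and a summit. The 2 input libraries have no peak list here.

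Start sites came from 45756 curated RefSeq transcripts of GRCm38.p6, the assembly of mm10. Peaks sharing at least 1 bp were merged into regions. Libraries bound were compared by Fisher's exact test per gene, and fold enrichment by limma 3.58.1 (R 4.3.3). On simulated data limma recovered 93% of 200 regions changed by 1 on the log2 scale, with 8 false calls. Smaller changes were not simulated. No test was made over the members. Named were members bound in all 8 libraries or in 4 of one nucleus and 0 of the other, the strongest of each family, 29 members with hypothalamic roles and any passing limma, and unbound members where a family had 6 or fewer. Lhx5, Nkx6-3, Hoxd1, the Irx2 region and the homeobox genes named from outside the families were chosen after their values were seen. Some items are not reported here. Members and lists were chosen with earlier results of these data known. Titles and file names number the AVPV libraries differently, and the titles' numbers are used. No peak had the same position and fold enrichment in more than 1 library (0 peaks).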

Additional observations from a re-analysis of the deposited data

Results flagged for a closer look

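The number of members bound per library set 1 library apart from the other 3 of its nucleus in 4 of 6 groups of 4 counts. In each the other 3 libraries tie, so that a difference of 1 or 2 genes is enough to set a library apart, and the usual rate of about 1 in 20 by chance does not apply to such counts. Arcuate replicate 3 bound 3 members where the others bound 4, and AVPV replicate 3 bound 3 where the others bound 2. Within 20 kb, arcuate replicate 4 bound 2 members where the others bound 0, and AVPV replicate 1 bound 0 where the others bound 1. Arcuate replicate 3 had the shortest arcuate list and AVPV replicate 1 the shortest AVPV list, while AVPV replicate 3 had the longest AVPV list. Arcuate replicate 4, which bound the most members within 20 kb, had 3468 peaks, fewer than arcuate replicates 1 and 2. The part of list length in these counts was not tested.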

How the results depend on the processing

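The mean of 3 members bound per library became 5.88 with protein-coding start sites alone, 0.625 within 20 kb, 1 within 50 kb, 2.38 both above a fold enrichment of 5 and at a -log10 q of at least 5, 1.88 with lists of equal length and 2.13 with GENCODE M21, and lay between 2.88 and 3.13 without each library in turn. The arcuate minus AVPV difference of 1.5 members became 2.25, -0.25 and -0.5 under the first 3 of these, 0.75 at the q limit and 0.75 with lists of equal length, and -0.25 with GENCODE M21. Its order therefore depended on the annotation and the distance allowed, and the cause was not tested. In each of these settings the share of members stayed below that of all genes. The 7 members ever bound became 15, 4, 4 and 4 with protein-coding start sites, 20 kb, 50 kb and GENCODE M21. The 1 member bound in 4 of 4 arcuate and 0 of 4 AVPV libraries became 0 at 20 and 50 kb, above a fold enrichment of 5, at the q limit, with lists of equal length and with GENCODE M21, and the range without each library was 1 to 2, with Irx3 joining Isl1 without arcuate replicate 4. The 110 genes bound in every library of one nucleus and in none of the other became 60 within 20 kb, with a range of 128 to 236 without each library, the highest without arcuate replicate 4. With percentiles in place of fold enrichment, limma found 100 regions higher in the arcuate and 46 in the AVPV, or 68.5% higher in the arcuate against 52.6% before. A replicate block left the mean difference at 1.5 members and gave 107 and 101 regions in limma. No source used here states if an arcuate and an AVPV library that share a number form a pair. The correlations of their deviations ran from -0.311 to 0.100, which cannot settle how the libraries were prepared. Read depth was not analysed, so a weak site and an absent one cannot be told apart.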
